A study of Homo sapiens with 26 samples.

Results

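The 10 genes described here are regulators and markers of the integrated stress response: ATF4, DDIT3, CEBPB, CEBPG, TRIB3, DDIT4, SESN2, CHAC1, PPP1R15A and NUPR1. They were taken by name from the 63086 genes of the count files. They were selected on measured values, with earlier results of these data in view, above all the levels in RQ against WT cells. Values of RQ against WT, and of arsenite in RQ cells, are therefore given as a description without a p. Counts by the call rule given below use an adjusted p. In these contrasts such counts describe the values and are not evidence. Of the 10 genes, 8 passed the filter on low counts and belong to the 9099 protein-coding genes tested, which had more than 10 CPM (counts relative to the depth of a library) in at least 12 of 24 libraries. CHAC1 passed this level in 11 libraries and was fitted with a lower filter, and NUPR1 passed it in 0 libraries. DDIT3 passed it in 19 libraries, mostly those of arsenite cells, where it was high.

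The study sequenced poly(A) RNA of HCT116, a line derived from a human colorectal carcinoma, in 26 libraries. The 24 libraries of engineered cells formed 8 groups of 3: cells with mCherry-IGF2BP1 as wild type (WT), S181E, Y396E or RQ (R167Q, R168Q, R174Q and R178Q), each kept as a PBS control or exposed to 500 µM sodium arsenite for 2 h. IGF2BP1 is an RNA-binding protein that enters stress granules, S181E and Y396E put glutamate in place of phosphorylated residues of its disordered linkers, and RQ replaces arginines of linker 1. All 4 populations shared the background IGF2BP2 KO, IGF2BP3 KO and Tet-OsTIR1-PURO, which came from a single knockout clone, and carried the lentiviral transgene under the hPGK promoter after sorting for mid-range mCherry. The dishes of a group were plated independently, so p-values measure the spread between dishes of 1 population and not between independently made populations. A parental HCT116 pair, 1 control and 1 arsenite library, had no replicates.

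Total counts ranged from 22508145 to 50834401 per library. Of 6 epithelial markers listed for HCT116 cells, 5 were expressed at group means of 28.3 CPM (CDH1) or more, and CDH17 was at or near 0. PTPRC, PECAM1 and ALB, which mark blood, endothelial and liver cells, stayed under 0.16 CPM in all 8 groups, SYP had 1.02 to 1.96 CPM and COL1A1 had 7.52 to 10.98 CPM. Y396E arsenite replicate 3 had counts for 13897 genes, against at least 20850 in the other 23 libraries, and Y396E arsenite values without it are given beside the results that use it. In bulk RNA, more RNA per cell and more cells with the RNA cannot be told apart. The RNA came from lysates cleared by centrifugation, so all levels are of RNA that stayed in the lysate. RNA lost to the pellet, in control or arsenite cells, was not measured.

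The integrated stress response starts with kinases that phosphorylate the translation factor eIF2 on its alpha subunit. The HRI kinase (EIF2AK1) responds to arsenite and haem shortage, PKR (EIF2AK2) to double-stranded RNA, PERK (EIF2AK3) to unfolded proteins in the endoplasmic reticulum and GCN2 (EIF2AK4) to uncharged tRNA. Phosphorylated eIF2 blocks its exchange factor eIF2B, general translation falls, and the mRNA of the transcription factor ATF4 is translated more. ATF4 then binds C/EBP-ATF response elements together with C/EBP partners and raises genes of amino acid supply, redox balance and growth control, and PPP1R15A closes the loop by returning phosphatase activity to eIF2. ATF4 itself is controlled mainly at translation, which RNA levels do not show.

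The genes lie on different chromosomes and are compact. The median gene of the 10 spanned 4499 bases with 3 merged exons, against 30459 bases and 10 exons over the genes tested. ATF4 (ENSG00000128272.18) lies at chr22:39519695-39522683 in hg38, DDIT3 (ENSG00000175197.13) at chr12:57516588-57521737 on the minus strand, CEBPB (ENSG00000172216.6) at chr20:50190830-50192668 and CEBPG (ENSG00000153879.9) at chr19:33373709-33382686. TRIB3 (ENSG00000101255.13) lies at chr20:362835-397559, DDIT4 (ENSG00000168209.6) at chr10:72273924-72276036 and SESN2 (ENSG00000130766.5) at chr1:28259518-28282491. CHAC1 (ENSG00000128965.13) lies at chr15:40952962-40956512, PPP1R15A (ENSG00000087074.9) at chr19:48872212-48876059 and NUPR1 (ENSG00000176046.9) at chr16:28532708-28539008 on the minus strand. ATF4 has 4 processed pseudogenes, which held 0 to 36 counts in all libraries together against 583297 for ATF4. DDIT3 overlaps MARS1 on the opposite strand, and counting was strand-specific.

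Because ATF4 acts through C/EBP-ATF elements, the promoters were searched on both strands for the letters TGATGNAA. RefSeq promoter windows (GRCh38.p14, 250 bases before to 50 after the start) were present for 9 of the 10 genes, all but NUPR1. The letters stood in the windows of 2 of the 9, CHAC1 and CEBPG, and in those of 4.457% of all 27305 genes. In a wider window of 1000 bases before to 500 after the start, chosen after the first result had been seen, 6 of the 9 genes held them, against 19.8% of all genes. The 30-base stretches are shown because they are the candidate elements nearest to the genes whose RNA is described, with the matching letters in capitals and in the orientation of the gene:
CEBPG: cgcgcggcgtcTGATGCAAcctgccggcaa
CHAC1: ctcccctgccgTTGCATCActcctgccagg
DDIT3: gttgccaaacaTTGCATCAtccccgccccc
DDIT4: gtcctcggtccTGATGCAAccgtctggatc
SESN2: gtgaagtccctTTTCATCAcgcaaccctaa
TRIB3: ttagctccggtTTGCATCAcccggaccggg

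The CEBPG stretch lies at chr19:33374060-33374089 (plus strand), in an intron of the longest gene model and at position -42 from a second RefSeq start. The CHAC1 stretch lies at chr15:40953251-40953280 (plus strand), inside an annotated exon and at position -209 from the RefSeq start. For DDIT3 it lies at chr12:57520802-57520831 (minus strand), in an intron of the gene model, at position -306 or -303 from its RefSeq starts. The DDIT4 stretch at chr10:72272967-72272996 (position -946) and the SESN2 stretch at chr1:28259211-28259240 (position -296), both on the plus strand, lie upstream of the annotated genes. TRIB3 held the same 30 bases 3 times in tandem on the plus strand, at chr20:380881-380910, chr20:380914-380943 and chr20:380947-380976, within an exon of the longest gene model and before its RefSeq starts. ATF4, CEBPB and PPP1R15A had no such letters in either window. A match is a description of the letters and not evidence of binding.

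In WT control cells ATF4 had by far the highest level of the 10 genes per kilobase of exon, 308 ± 13.1 CPM per kb (SD, n = 3). PPP1R15A followed at 41.2 ± 2.03 CPM per kb. CEBPB at 23.0 ± 0.875 and CEBPG at 22.2 ± 1.16 CPM per kb did not differ beyond their spread. TRIB3 (11.3 ± 0.151), DDIT4 (10.2 ± 0.631), DDIT3 (7.11 ± 0.442), SESN2 (4.16 ± 0.292) and CHAC1 (1.22 ± 0.483 CPM per kb) made up the lower part of the order. After arsenite the order in WT cells on the same scale was ATF4 at 249 ± 2.46, PPP1R15A at 192 ± 5.01, DDIT3 at 79.3 ± 2.36 and DDIT4 at 57.7 ± 4.29 CPM per kb, so DDIT3 and DDIT4 had moved above CEBPB (42.4 ± 2.24) and TRIB3 (14.7 ± 0.840). In RQ arsenite cells DDIT4 (160 ± 21.2) stood next to DDIT3 (130 ± 15.9 CPM per kb), and TRIB3 (52.4 ± 14.3) stood above SESN2 (40.8 ± 6.80), CHAC1 (38.6 ± 4.66) and CEBPG (25.4 ± 2.44 CPM per kb). The spreads of TRIB3, SESN2 and CHAC1 overlapped in this group.

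**Figure D1:**
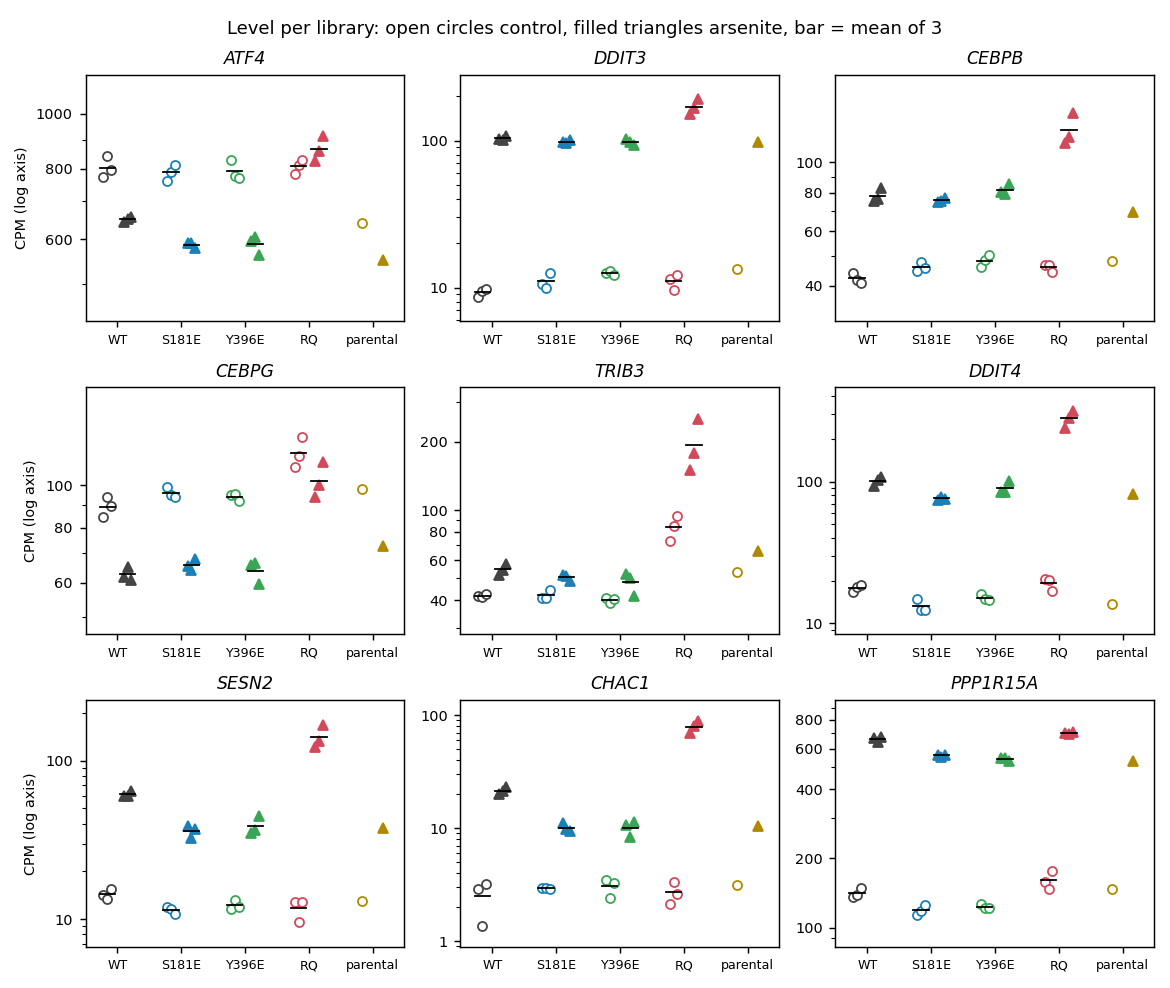
Level of 9 genes in each library, in CPM on a log axis, by population on the x axis. Open circles are control and filled triangles arsenite libraries, a bar is the mean of 3, and the parental population has 1 library per treatment. The arsenite triangles of RQ lie above those of the other populations for 9 of 9 genes, and their highest point is replicate 3 in each.

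Arsenite raised 6 of the 8 tested genes in WT cells and lowered 2. The 6 include DDIT3, which passed the filter through the arsenite libraries. DDIT3, DDIT4, PPP1R15A and SESN2 rose more than 4-fold, CEBPB and TRIB3 rose by less, and the transcription factor genes ATF4 and CEBPG fell. A gene was called when its edgeR adjusted p (quasi-likelihood test, Benjamini-Hochberg over 9099 genes) was under 0.05 and its fold change above 1.2. In WT cells 36.3% of all tested genes were called higher and 35.9% lower. Among the 8 genes TRIB3 was closest to the threshold on adjusted p and ATF4 to the threshold on fold. The median log2 change was 1.49 over the 8 genes and -0.01 over all. With library totals alone in place of TMM scaling the median log2 change of all genes moved to 0.15 and the share of called genes that were higher moved from 50.3% to 61.6%. The same 6 and 2 directions were found in S181E and Y396E cells, although TRIB3 did not pass there.

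DDIT3, which encodes the transcription factor CHOP, had the largest rise of the tested genes of the list. Its level was 8.65, 9.49 and 9.75 CPM in the WT control libraries and 103, 101 and 107 CPM after arsenite. All arsenite libraries lay far above all controls, by a log2 change of 3.48 ± 0.09 (SE; 11.2-fold). No p is given for it, since DDIT3 passed the filter through the arsenite libraries. In S181E cells it went from 10.7, 9.93 and 12.7 to 97.7, 96.7 and 101 CPM, a log2 change of 3.14 ± 0.09. In Y396E cells it went from 12.6, 13.0 and 12.2 to 102, 98.4 and 93.3 CPM, a log2 change of 2.96 ± 0.09. These phosphomimetic cells thus began somewhat higher and ended at levels that overlapped those of WT. RQ control libraries had 11.5, 9.59 and 12.2 CPM and RQ arsenite libraries 152, 166 and 193 CPM, a log2 change of 3.94 ± 0.09 (15.3-fold), with every RQ arsenite library above every other one.

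DDIT4, also known as REDD1, restrains the growth kinase complex mTORC1. In WT cells it rose from 16.6, 18.0 and 18.7 CPM to 92.5, 103 and 107 CPM, a log2 change of 2.51 ± 0.10. S181E cells had 14.9, 12.4 and 12.5 CPM in control and 74.7, 77.6 and 75.8 CPM in arsenite, lower than WT in all libraries of both treatments. The rise itself was nearly the same, 2.52 ± 0.10 in S181E and 2.57 ± 0.10 in Y396E on the log2 scale. Y396E libraries went from 15.99, 14.8 and 14.6 to 84.1, 83.8 and 102 CPM and overlapped WT in arsenite. RQ control libraries overlapped WT at 20.4, 20.3 and 16.9 CPM. RQ arsenite libraries reached 241, 282 and 315 CPM, a log2 change of 3.87 ± 0.10 from RQ control, and none overlapped another population.

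SESN2 encodes a sestrin, a leucine-binding inhibitor of mTORC1 signalling, and it separated the populations in both directions. WT libraries rose from 14.2, 13.5 and 15.5 CPM to 60.1, 60.3 and 64.9 CPM (log2 change 2.10 ± 0.12). S181E libraries rose from 11.96, 11.6 and 10.8 to 38.9, 32.5 and 37.0 CPM (1.66 ± 0.12), and Y396E libraries from 11.7, 13.3 and 11.98 to 35.0, 36.4 and 44.6 CPM (1.66 ± 0.12). After arsenite every phosphomimetic library lay below every WT library. RQ libraries began at 12.8, 9.63 and 12.8 CPM, below WT, and ended at 122, 134 and 168 CPM, above it, a log2 change of 3.59 ± 0.12.

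PPP1R15A, the stress-induced subunit that directs phosphatase 1 to eIF2, rose by a like amount in every population. It went from 136, 139 and 149 CPM to 669, 641 and 672 CPM in WT, from 113, 118 and 126 to 565, 552 and 566 CPM in S181E, and from 127, 122 and 122 to 545, 546 and 532 CPM in Y396E. The log2 changes were 2.22 ± 0.05, 2.24 ± 0.05 and 2.13 ± 0.05. RQ cells had 158, 147 and 177 CPM in control and 704, 698 and 711 CPM in arsenite, a log2 change of 2.13 ± 0.05. The phosphomimetic populations lay below WT in all libraries of both treatments.

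TRIB3, a pseudokinase that binds ATF4 and CHOP and restrains their activity, moved little outside RQ. WT control libraries had 41.8, 41.2 and 42.4 CPM and WT arsenite libraries 51.9, 54.1 and 58.0 CPM, a log2 change of 0.39 ± 0.12 (edgeR adjusted p = 0.00616, Benjamini-Hochberg). In S181E the libraries had 40.8, 40.8 and 44.3 CPM in control and 51.8, 51.2 and 48.5 CPM in arsenite. This log2 change of 0.27 ± 0.12 did not pass (edgeR adjusted p = 0.0562, Benjamini-Hochberg), but it passed in 6 of 9 alternative analyses and in 8 of 24 fits without 1 library, with values of 0.27 to 0.31. In Y396E the libraries had 41.0, 38.9 and 40.4 CPM in control and 52.3, 49.9 and 41.7 CPM in arsenite, and the log2 change of 0.26 ± 0.12 did not pass either (edgeR adjusted p = 0.0631, Benjamini-Hochberg), and passed in 3 of 9 alternative analyses and 4 of 24 fits without 1 library. Without Y396E arsenite replicate 3, the lowest of the 3, the Y396E value was 0.36 and passed, with an edgeR adjusted p of 0.00807 (Benjamini-Hochberg). RQ cells already held 73.0, 84.6 and 93.7 CPM in control and reached 150, 179 and 254 CPM in arsenite, a log2 change of 1.22 ± 0.12. The lowest RQ control library thus lay above the highest arsenite library of the other engineered populations.

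CEBPB encodes a C/EBP transcription factor that is itself a target of ATF4 and other stress factors. Its levels rose in WT from 44.1, 41.9 and 41.0 CPM to 75.2, 76.2 and 82.8 CPM, a log2 change of 0.88 ± 0.07. S181E (44.5, 47.9 and 45.8 to 74.7, 75.2 and 76.6 CPM) and Y396E (45.9, 48.5 and 50.3 to 80.3, 79.4 and 85.3 CPM) overlapped WT after arsenite, with log2 changes of 0.71 ± 0.07 and 0.76 ± 0.07. RQ went from 46.7, 46.7 and 44.3 CPM to 116, 121 and 144 CPM, a log2 change of 1.47 ± 0.07, and stood apart from the rest in arsenite only.

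ATF4 mRNA fell under arsenite in 3 populations. WT libraries had 774, 841 and 796 CPM in control and 644, 651 and 657 CPM in arsenite, a log2 change of -0.30 ± 0.04, which was -0.14 and not called with library totals alone. S181E went from 762, 790 and 811 to 592, 591 and 578 CPM (-0.43 ± 0.04 log2) and Y396E from 827, 777 and 769 to 595, 605 and 563 CPM (-0.43 ± 0.04 log2). In these 3 populations no arsenite library overlapped a control library. RQ libraries had 783, 813 and 827 CPM in control and 827, 861 and 916 CPM in arsenite, a log2 change of 0.10 ± 0.04 with touching ranges. With library totals alone the RQ value was 0.27 and past the fold threshold.

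CEBPG encodes a short C/EBP protein that pairs with ATF4 on its target elements, and its RNA fell where that of ATF4 fell. It fell from 84.6, 93.9 and 89.9 CPM to 61.9, 65.1 and 61.0 CPM in WT (log2 change -0.51 ± 0.06), and by log2 changes of -0.54 ± 0.06 in S181E and -0.56 ± 0.06 in Y396E. S181E arsenite libraries had 65.5, 64.2 and 68.0 CPM and Y396E arsenite libraries 65.7, 66.5 and 59.5 CPM, which overlapped WT. RQ control libraries had 110, 116 and 129 CPM, above all other controls, and RQ arsenite libraries had 94.0, 100 and 113 CPM, above all other arsenite libraries. The change within RQ was -0.20 ± 0.06 on the log2 scale, under the fold threshold, and -0.27 without RQ arsenite replicate 3, which passed it.

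**Figure D2:**
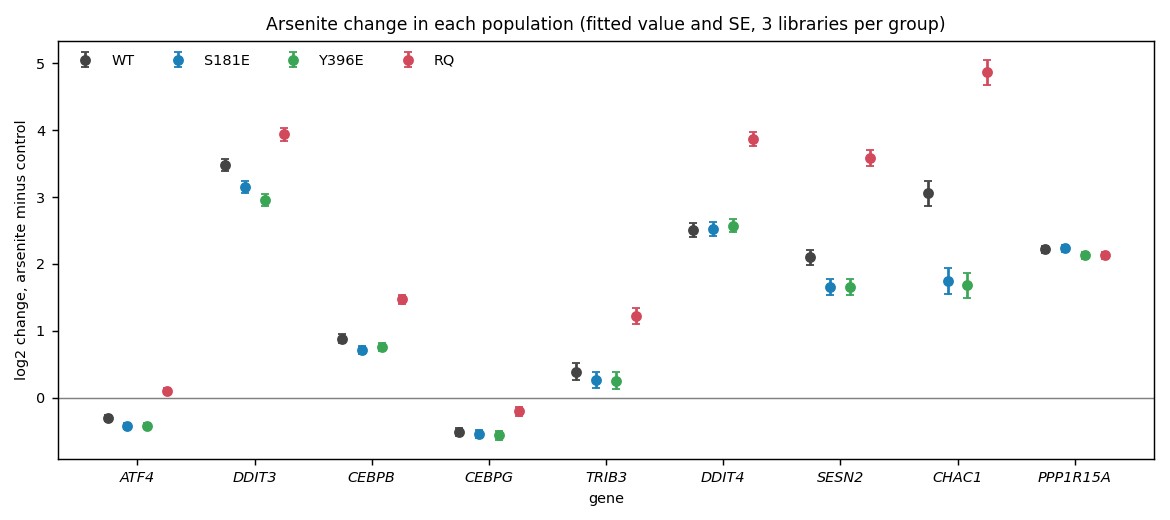
Fitted log2 change of arsenite against control (y axis) for 9 genes (x axis) in the 4 populations, with bars of 1 SE. CHAC1 comes from the fit with the lower filter. RQ lies highest for 8 of the 9 genes, and for PPP1R15A the 4 populations lie between 2.13 and 2.24.

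Taken over the tested genes, arsenite called 5 higher and 2 lower of 8 in S181E, where the background was 32% higher and 33.3% lower, and 5 higher and 2 lower in Y396E, with 32.9% in either direction. In RQ, 6 were past the call rule upwards and 0 downwards, beside 37.1% and 35.8% of all tested genes. The upward counts again include DDIT3. The median log2 changes were 1.19 in S181E, 1.21 in Y396E and 1.80 in RQ. Without Y396E arsenite replicate 3, the Y396E changes were 3.01 for DDIT3, 2.49 for DDIT4, 2.16 for PPP1R15A, 1.56 for SESN2, 0.74 for CEBPB, -0.38 for ATF4, -0.50 for CEBPG and 1.57 for CHAC1 on the log2 scale, and 8 genes of 8 were called.

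CHAC1 encodes an enzyme that breaks down glutathione and is a direct target of the ATF4 and CHOP pathway. It was near the limit of detection in control cells, with 33 to 107 counts per library in the 12 control libraries of engineered cells. WT libraries had 2.88, 1.37 and 3.24 CPM in control and 20.0, 21.3 and 23.2 CPM in arsenite. S181E arsenite libraries had 11.1, 9.76 and 9.41 CPM and Y396E arsenite libraries 10.7, 8.34 and 11.4 CPM, all below WT. RQ control libraries had 2.12, 3.37 and 2.62 CPM, and RQ arsenite libraries had 69.2, 79.9 and 88.2 CPM, all above WT. With genes over 1 CPM in at least 3 libraries, which left 12048 genes, arsenite changed CHAC1 by 3.06 ± 0.19 log2 in WT and by less in S181E (1.74 ± 0.19) and Y396E (1.68 ± 0.19). The log2 change in RQ was 4.86 ± 0.19.

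In that fit CHAC1 was lower than WT in arsenite by a log2 difference of -1.10 ± 0.16 in S181E (edgeR adjusted p = 1.87e-05, Benjamini-Hochberg) and of -1.10 ± 0.16 in Y396E (edgeR adjusted p = 1.02e-05, Benjamini-Hochberg). Of the 12048 genes, 7.44% were called lower in S181E and 11.3% in Y396E. The response to arsenite was also smaller than in WT, by -1.31 ± 0.27 log2 in S181E (edgeR adjusted p = 0.0034, Benjamini-Hochberg) and -1.37 ± 0.27 in Y396E (edgeR adjusted p = 0.00184, Benjamini-Hochberg), where 7.02% and 8% of the genes were called lower. When each of the 24 libraries was left out in turn the response differences stayed between -1.51 and -1.04 in S181E and between -1.58 and -1.11 in Y396E, and each remained past the threshold. Without Y396E arsenite replicate 3 the Y396E difference was -1.21 in arsenite and -1.48 for the response. RQ arsenite exceeded WT arsenite by 1.87 ± 0.15 log2, and controls of the 3 mutants differed from WT by 0.06 to 0.27 log2, which was not called.

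NUPR1, a small stress-induced nuclear protein, was close to absent from the RNA. All S181E libraries had 0 counts, and WT and Y396E libraries had 0 to 2. A single library with 0 allows up to 3 counts, and the S181E libraries together allow fewer per library. RQ control libraries had 10, 1 and 3 counts and RQ arsenite libraries 3, 1 and 2, at most 0.336 CPM. No fold is given for it.

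The comparison of mutants with WT in control cells asks whether the linker mutants set a different resting level of the response. Among the 8 tested genes, S181E had 1 higher and 2 lower, and these were DDIT3 (log2 difference 0.26 ± 0.10, edgeR adjusted p = 0.0359, Benjamini-Hochberg), DDIT4 (-0.42 ± 0.11, 0.00266) and SESN2 (-0.34 ± 0.12, 0.0295). The background was 15.7% higher and 15.4% lower of 9099 genes. The DDIT3 and SESN2 differences are close to the threshold. With each of the 24 libraries left out in turn, the DDIT3 call was lost in 6 fits, with values of 0.15 to 0.28, as it was in 6 of 9 alternative analyses, and the SESN2 call in 4, with values of -0.35 to -0.28. PPP1R15A was lower by -0.25 ± 0.05 log2, under the fold threshold. With library totals alone, where the median of all genes in this comparison was 0.18, SESN2 was -0.18 and not called, CEBPB was 0.28 and called, and the share of called genes that were higher was 83.6% against 50.4% with TMM scaling.

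Y396E control cells differed from WT for 1 of the 8 genes, DDIT3, by 0.44 ± 0.10 log2 (edgeR adjusted p = 0.00127, Benjamini-Hochberg), beside 14.5% of genes called higher and 14.2% lower. All 3 Y396E control libraries lay above all 3 WT ones. The other 7 genes ranged from -0.23 (SESN2) to 0.19 (CEBPB) on the log2 scale. With library totals alone CEBPB was called as well, at 0.32, while the median of all genes was 0.14 and 81.1% of the called genes were higher against 50.5%.

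RQ control cells stood apart for TRIB3 and CEBPG. The log2 difference from WT was 1.00 ± 0.12 for TRIB3 (2.00-fold) and 0.40 ± 0.06 for CEBPG (1.32-fold), and no RQ library of either gene overlapped a WT library. The remaining 6 tested genes lay between -0.29 ± 0.13 (SESN2) and 0.26 ± 0.10 (DDIT3), with ATF4 at 0.01 ± 0.04. Of all genes tested, 1% passed the call rule upwards and 0.429% downwards, which is printed beside the 2 of 8 without a reading because this contrast was in view when the genes were chosen.

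In arsenite cells, S181E and Y396E lay below WT for part of the list. In S181E 0 genes were called higher and 2 lower, SESN2 by -0.77 ± 0.11 log2 (edgeR adjusted p = 5.81e-06, Benjamini-Hochberg) and DDIT4 by -0.41 ± 0.09 (edgeR adjusted p = 0.00127, Benjamini-Hochberg), beside 5.32% of genes called higher and 8.42% lower. In Y396E 0 were called higher and 2 lower, SESN2 by -0.67 ± 0.11 (edgeR adjusted p = 2.33e-05, Benjamini-Hochberg) and PPP1R15A by -0.29 ± 0.05 (edgeR adjusted p = 0.000107, Benjamini-Hochberg), beside 9.77% higher and 11.9% lower. Both comparisons use the same 3 WT libraries. Without Y396E arsenite replicate 3 the Y396E difference was -0.79 for SESN2 and -0.28 for PPP1R15A, and 3 genes were called in place of 2. With library totals alone PPP1R15A in Y396E was -0.26 and not called. The median log2 difference of the 8 genes was -0.13 in S181E and -0.16 in Y396E, against -0.01 and -0.00103 over all genes.

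RQ arsenite cells had higher levels than WT for 7 of the 8 tested genes by the call rule. The log2 differences were 1.83 ± 0.12 for TRIB3 (3.56-fold), 1.47 ± 0.09 for DDIT4 (2.77-fold), 1.195 ± 0.10 for SESN2 (2.29-fold), 0.72 ± 0.08 for DDIT3, 0.71 ± 0.06 for CEBPG, 0.70 ± 0.06 for CEBPB and 0.42 ± 0.04 for ATF4 (1.33-fold). PPP1R15A, at 0.09 ± 0.05, was under the threshold. Over all genes 1.36% passed upwards and 0.154% downwards, and the median was 0.72 over the 8 genes and 0.00 over all, values that are printed without a reading for the same reason as in control cells.

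RQ arsenite replicate 3 had the highest value of its group for 9 of the 9 expressed genes and replicate 1 the lowest for 8. WT arsenite shared most of this order, with replicate 3 highest for 8 of 9 and replicate 1 lowest for 6. In S181E and in Y396E arsenite replicate 3 was highest for 4 of 9. The RQ arsenite dishes therefore differed together, most for TRIB3 at 150, 179 and 254 CPM. The values that follow leave out RQ arsenite replicate 3 and keep all WT libraries. Without replicate 3 the log2 differences from WT were 1.59 for TRIB3, 1.37 for DDIT4, 1.05 for SESN2, 0.62 for DDIT3, 0.63 for CEBPG, 0.60 for CEBPB and 0.37 for ATF4, and 1.78 for CHAC1. The lowest RQ arsenite library of each of these 8 genes lay above the highest WT arsenite library.

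**Figure D3:**
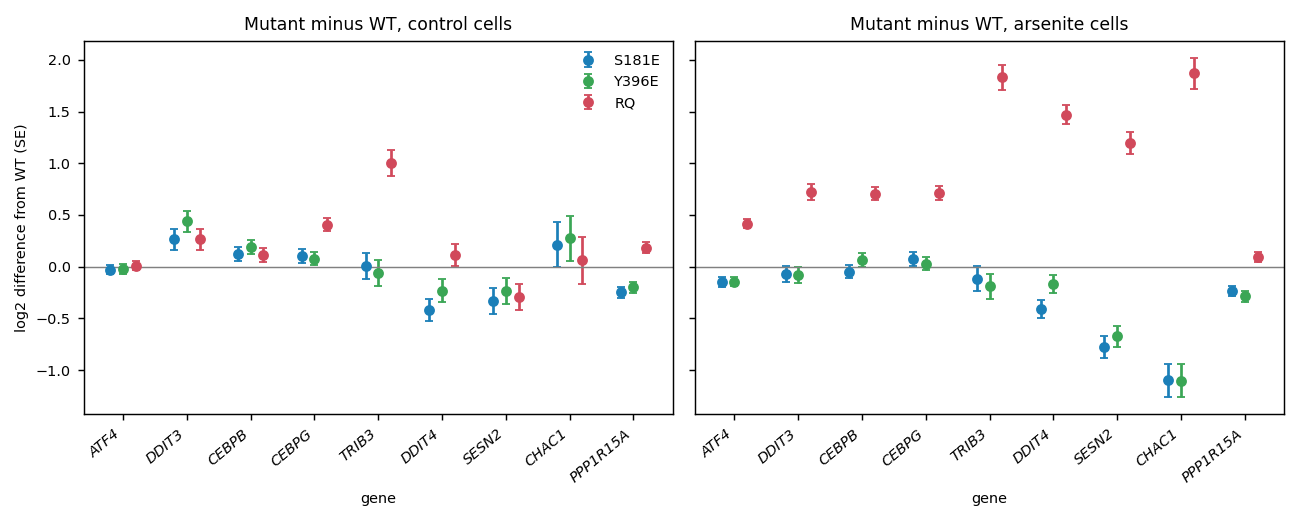
Fitted log2 difference of each mutant from WT (y axis, bars of 1 SE) for 9 genes (x axis), in control cells on the left and arsenite cells on the right. CHAC1 comes from the fit with the lower filter. In arsenite RQ lies above 0 for all 9 genes, from 0.09 for PPP1R15A to 1.87 for CHAC1, while S181E and Y396E lie lowest for SESN2 and CHAC1.

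The difference between responses, arsenite minus control in a mutant against the same change in WT, asks whether the size of the arsenite effect differed. In S181E 0 of the 8 genes were called by edgeR and 0 by DESeq2, beside 6.98% of genes called higher and 9.41% lower. SESN2 (-0.44 ± 0.16, edgeR adjusted p = 0.0614, Benjamini-Hochberg) had an unadjusted p under 0.05 and did not pass. DDIT3 (-0.34 ± 0.13) did not pass either, and both passed in 3 of 9 alternative analyses. No p is given for DDIT3 in a response, since it contains the arsenite change through which DDIT3 passed the filter. In Y396E SESN2 (-0.44 ± 0.16, edgeR adjusted p = 0.0484, Benjamini-Hochberg) met the call rule downwards and 0 genes upwards, beside 11.1% lower and 10.3% higher. DDIT3 (-0.52 ± 0.13) met it downwards too, which is not evidence for the same reason. The SESN2 call in Y396E was lost in 16 of 24 fits that left out 1 library, with edgeR adjusted p (Benjamini-Hochberg) of 0.0509 to 0.124 and values of -0.46 to -0.38, and in 5 of 9 alternative analyses. Without Y396E arsenite replicate 3 it was kept, at -0.56 (edgeR adjusted p = 0.00577, Benjamini-Hochberg), and DDIT3 was -0.49.

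For RQ the response exceeded that of WT for 5 of the 8 genes by the call rule. The log2 differences of the response were 1.49 ± 0.16 for SESN2 (2.80-fold), 1.36 ± 0.14 for DDIT4 (2.56-fold), 0.83 ± 0.17 for TRIB3, 0.59 ± 0.09 for CEBPB and 0.41 ± 0.06 for ATF4. DDIT3 (0.46 ± 0.13), CEBPG (0.31 ± 0.09) and PPP1R15A (-0.09 ± 0.07) did not meet the rule. In all, 20 of the 9099 genes met it upwards (0.22%) and 0% downwards. These values are a description of a contrast that was in view. Without RQ arsenite replicate 3 the response difference was 0.59 for TRIB3, which no longer met the rule, 1.34 for SESN2, 1.26 for DDIT4, 0.48 for CEBPB and 0.36 for ATF4. TRIB3 missed the rule in 12 of 24 fits without 1 library, with values of 0.59 to 0.87, and in 3 of 9 alternative analyses, library totals among them.

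Other genes of the pathway were grouped in lists, which were also chosen with earlier results known. Of 23 further genes reported as ATF4 effector targets, 16 were tested, and ASNS, VLDLR, FGF21, SESN3, KDM7A, TSLP and FBXO32 were not. In WT cells arsenite raised 9 of the 16 and lowered 4, beside 36.3% and 35.9% of all tested genes. The largest rises were CTH (log2 change 2.31 ± 0.15), which makes cysteine, and ULBP1 (1.69 ± 0.12), a ligand of a natural killer cell receptor. Control means of both were under 10 CPM in every population, so they passed the filter mainly through the arsenite libraries, as DDIT3 did. Passing in this way favours a rise, and the 9 higher genes in WT include both. The largest falls were SLC7A5 (-1.12 ± 0.06), a transporter of large neutral amino acids, and STC2 (-0.77 ± 0.08), a secreted glycoprotein. The counts were 9 higher and 6 lower in S181E (background 32% and 33.3%) and 9 and 5 in Y396E (32.9% each way). In RQ they were, as a description, 10 and 2 (37.1% and 35.8%).

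In RQ control cells 9 of these 16 genes met the call rule upwards against WT and 0 downwards, beside 1% and 0.429% of all genes. They were led by PCK2 (1.48 ± 0.15 log2), the mitochondrial PEP carboxykinase, and SLC7A11 (1.45 ± 0.09 log2), the cystine importer. In RQ arsenite cells 13 did and 0 the opposite (1.36% and 0.154% of all genes), led by PCK2 (1.59 ± 0.14) and SLC7A11 (1.32 ± 0.09), with a median of 0.68. For the response of RQ against WT, 3 met the rule beside 0.22% of all genes, and these were STC2 (0.88 ± 0.11), SLC38A2 (0.46 ± 0.09) and VEGFA (0.43 ± 0.09). These counts come from a contrast in view and are not read further. S181E and Y396E each had 4 higher and 4 lower in control cells, where 15.7% and 15.4% of all genes were called in S181E and 14.5% and 14.2% in Y396E, with PHGDH, the first enzyme of serine synthesis, at 0.74 ± 0.10 and 0.78 ± 0.10 log2, and the amino acid transporter SLC38A2 at -0.67 ± 0.06 and -0.72 ± 0.06. Each had 3 higher and 3 lower in arsenite cells, where the background was 5.32% and 8.42% in S181E and 9.77% and 11.9% in Y396E, and SLC38A2 was again the lowest at -0.47 ± 0.06 and -0.53 ± 0.06 log2.

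Genes upstream of ATF4 were looked at in the same way. Among 7 genes of the eIF2 kinases and their relay, 0 met the call rule between RQ and WT in control or in arsenite cells, where at most 1.36% of all genes met it in either direction, so that a count of 0 is near the background. Their medians were 0.03 and -0.04 log2. In WT cells arsenite raised 3 of them (background 36.3%), the GCN2 activator GCN1 (1.15 ± 0.06), the PKR gene EIF2AK2 (0.80 ± 0.09) and the mitochondrial protease OMA1 (0.53 ± 0.11). S181E and Y396E control cells had more EIF2AK2 than WT, by 0.51 ± 0.09 and 0.45 ± 0.09 log2, and no other of the 7 was called there. Among 12 genes of eIF2, eIF2B and the phosphatase, EIF2S2 met the rule in RQ, at 0.27 ± 0.05 in control and 0.31 ± 0.05 log2 in arsenite, and the other 11 did not. In S181E control cells 5 of the 12 were called higher, against 15.7% of all genes, with EIF2S1 (0.48 ± 0.06) and EIF2B2 (0.45 ± 0.06) first, and in Y396E control cells 3 were, against 14.5%, with EIF2B2 (0.49 ± 0.06) and EIF2S1 (0.44 ± 0.06) first.

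The ATF6 and XBP1 branch of the unfolded protein response is a neighbouring pathway that does not pass through eIF2. All 11 of its genes were tested. In RQ control cells 0 met the call rule against WT. In RQ arsenite cells 2 did, XBP1 (0.50 ± 0.08 log2) and HERPUD1 (0.36 ± 0.06), beside 1.36% of all genes upwards. The median of the 11 in RQ arsenite cells was -0.03 log2. The cause of the 2 differences was not tested. In WT cells arsenite raised 5 and lowered 4 of them, shares near the 36.3% and 35.9% of all tested genes, from HERPUD1 (1.98 ± 0.07) to SDF2L1 (-0.73 ± 0.09).

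Among 8 partner bZIP factors, which can pair with the listed transcription factors, arsenite in WT raised JUN (log2 change 4.73 ± 0.09) and ATF3 (3.45 ± 0.09) and lowered CEBPD (-1.34 ± 0.14), ATF5 (-1.07 ± 0.08) and CEBPA (-0.50 ± 0.10), so 2 of 8 were higher and 3 lower beside the same background. In RQ arsenite cells JDP2 met the call rule against WT, at 0.87 ± 0.15 log2, and for the response ATF3 did, at 0.59 ± 0.12. JUN was lower than WT in control cells of S181E (-1.23 ± 0.09) and Y396E (-1.21 ± 0.09), and CEBPD was lower as well (-1.43 ± 0.14 and -1.25 ± 0.14 log2). Of the 8, 0 were called higher and 2 lower in S181E control cells (background 15.7% and 15.4%). The counts were 1 and 3 in Y396E control cells (14.5% and 14.2%). In arsenite cells they were 0 and 4 in S181E (5.32% and 8.42%) and 0 and 3 in Y396E (9.77% and 11.9%).

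**Figure D4:**
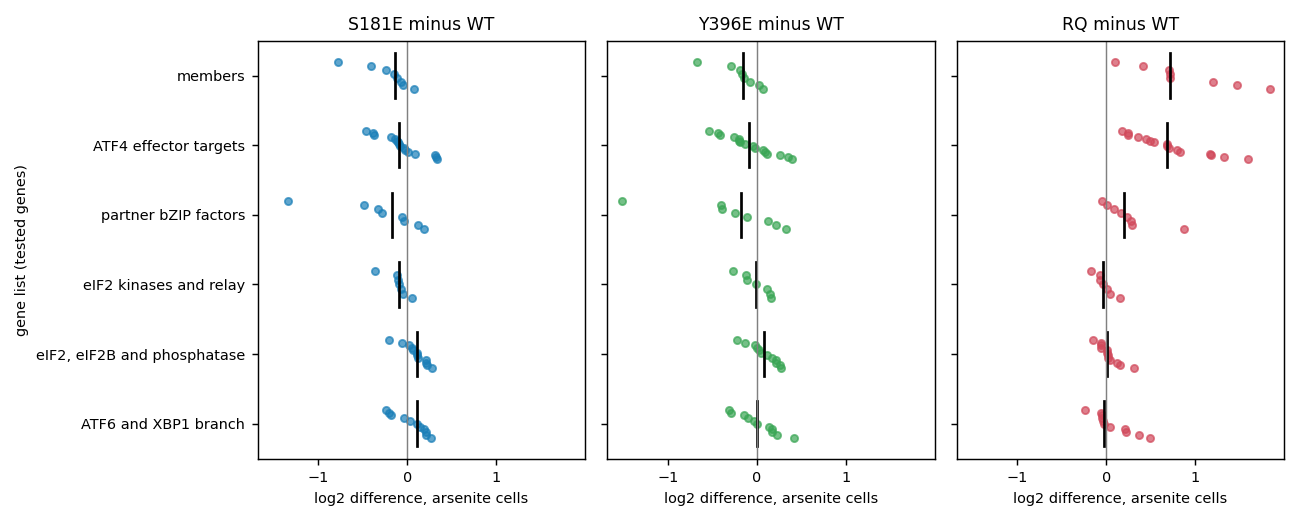
Fitted log2 difference of each mutant from WT in arsenite cells (x axis) for the tested genes of 6 lists (y axis). Points are genes and the bar is the median of a list. In the RQ panel the bars of the 8 tested genes of the report (0.72) and of the ATF4 effector targets (0.68) lie to the right of 0, and those of the eIF2 kinases, the eIF2 and phosphatase genes and the ATF6 and XBP1 branch lie between -0.04 and 0.01. The bar of the partner bZIP factors lies between these, at 0.20.

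The candidate element of the promoters was counted in the same lists with the wider window. It stood in 9 of 18 ATF4 effector targets with a RefSeq window (50%), 2 of 7 bZIP factors, 1 of 6 genes of the eIF2 kinases, 4 of 10 eIF2 and phosphatase genes and 2 of 11 genes of the ATF6 and XBP1 branch, against 19.8% of all genes. Of the tested genes of the report, PPP1R15A, ATF4 and CEBPB had none in either window. Whether the letters relate to the RQ differences was not tested.

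The transgene moved with the groups. Control cells had 18.6 ± 1.56 CPM of IGF2BP1 with S181E, 16.5 ± 1.18 with Y396E, 14.4 ± 1.91 with RQ and 12.1 ± 2.27 with WT. Arsenite cells had 47.1 ± 0.863 CPM with RQ, 43.3 ± 0.688 with S181E, 43.2 ± 1.26 with Y396E and 29.2 ± 1.15 with WT (SD, n = 3). The part of the transgene level in the differences was not tested.

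Parental cells, with 1 library per treatment, gave no test. On a scale set over all 26 libraries, the ratio of arsenite to control was 7.31 for DDIT3 (95% counting interval 6.58 to 8.15), 5.97 for DDIT4 (5.37 to 6.64), 3.61 for PPP1R15A (3.49 to 3.74), 3.35 for CHAC1 (2.65 to 4.27) and 2.89 for SESN2 (2.58 to 3.25). CEBPB had 1.44 and TRIB3 1.24, while ATF4 (0.860) and CEBPG (0.740) had ratios under 1. Past a fold of 2 upwards were 4 of the 8 tested genes, DDIT3, DDIT4, PPP1R15A and SESN2, against 9.87% of all tested genes upwards and 2.89% downwards. The intervals cover counting error only. Parental arsenite cells had 10.5 CPM of CHAC1 and 37.8 CPM of SESN2, beside 21.6 and 61.9 CPM in WT and 79.2 and 142 CPM in RQ on the same scale. On the scale of the fitted libraries, CHAC1 had 10.1 CPM in S181E and in Y396E arsenite cells, against 21.5 CPM in WT. SESN2 had 36.1 CPM in S181E and 38.7 CPM in Y396E, against 61.8 CPM in WT. For both genes the single parental arsenite library thus lay nearer to the phosphomimetic populations than to WT. Whether the parental level differs from any population was not tested. TRIB3 was at 53.2 CPM in parental control cells, between the 41.9 CPM of WT and the 83.9 CPM of RQ.

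Genes with the most similar levels were searched over the 12 arsenite libraries among all tested genes outside the list. The closest to TRIB3 were GOT1 (Pearson r 0.994), SLC3A2 (0.993) and GARS1 (0.993), and the closest to DDIT3 were GOT1 (0.995), GARS1 (0.992) and AARS1 (0.990). CEBPG was closest to CARS1 (0.983), CEBPB to GDF15 (0.986), DDIT4 to SLC7A5 (0.984), SESN2 to LRATD2 (0.985), ATF4 to TRIOBP (0.988) and PPP1R15A to CLK1 (0.995). GARS1, AARS1 and CARS1 encode aminoacyl-tRNA synthetases, GOT1 an aspartate aminotransferase, and SLC3A2 and SLC7A5 subunits of an amino acid transporter. The libraries fall into 4 populations of 3, so these values describe the difference between populations and carry no p.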

How the data were processed

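Poly(A) RNA from clarified lysates, the input of an immunoprecipitation, was sequenced as directional single reads of 100 bases. The authors aligned reads to hg38 (submitters' notes: Subread 2.0.6, STAR 2.7.11b, FastQC 0.11.9, bcl2fastq 2.20.0.422). They deposited raw read counts for each gene as whole numbers. Per the file headers, featureCounts counted exons with strand setting 2 on GENCODE release 46. Symbols came from GENCODE release 44 (99.1% of identifiers matched). Immunoprecipitation libraries were not analysed here.

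Following the study's design, protein-coding genes with more than 10 CPM in at least 12 of 24 libraries were scaled by TMM (factors 0.865 to 1.086) and fitted together in edgeR 4.0.16 (R 4.3.3, limma 3.58.1) with 1 mean per group and 16 residual degrees of freedom. Contrasts used the quasi-likelihood test with Benjamini-Hochberg adjustment over 9099 genes. SE is the log2 change divided by the square root of F, with a median of 0.0774 between groups and 0.109 between responses. CPM values are TMM-scaled. The parental pair was not fitted. Replicates of a group differed by more than counting noise (chi-square per gene 2.96 to 70.3).

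The listed genes and the gene lists were chosen with earlier results of these data known. Named are the 10 genes, per list the genes with the largest changes (up to 2 each way) with other called members where a count is small, the transgene, and for each tested gene those of highest r. Called genes named beyond 2 each way were chosen after their values were seen. Alternatives were DESeq2 1.42.0, its size factors, a fold of 1.5, a replicate block, leaving out each library, fitting the compared groups alone, including non-coding genes, lower or no filters, and library totals without TMM. The wider promoter window and the leave-one-out fits of CHAC1 were chosen after seeing the data. The test was also checked on counts simulated from the means, dispersions and library sizes of the main fit.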

Additional observations from a re-analysis of the deposited data

Results flagged for a closer look

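For some of these genes the arsenite response differed between a phosphomimetic population and WT in a test of the difference itself (interaction contrast, edgeR quasi-likelihood test with Benjamini-Hochberg adjustment). Among the 10 genes, CHAC1 had a smaller response in S181E (-1.31 log2, adjusted p 0.0034) and in Y396E (-1.37, 0.00184), both in the fit with the lower filter. SESN2 (-0.44, adjusted p 0.0484) had a smaller response in Y396E, where 11.1% of all tested genes were called lower. DDIT3 had -0.52 there. It passed the filter through arsenite libraries, so it is listed without a p and its call is not evidence. DDIT3 means were 12.6 CPM in Y396E and 9.30 CPM in WT control cells. In arsenite cells they were 98.0 and 104 CPM, and the libraries overlapped. The SESN2 call was lost in 16 of 24 fits without 1 library and in 5 of 9 alternative analyses. In S181E 0 of the 8 tested genes were called.

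In each population the same test called 9 genes of the pathway lists, which were chosen with earlier results known: 3 of 16 ATF4 effector targets, 2 of 11 genes of the ATF6 and XBP1 branch, 1 of 7 of the eIF2 kinases, 1 of 12 of eIF2 and phosphatase and 2 of 8 bZIP factors. Over all tested genes 6.98% were called higher and 9.41% lower in S181E and 10.3% and 11.1% in Y396E. With both directions together, the count over the lists is near the background in S181E and under it in Y396E. It is not read as a result about the pathway, and the genes are named as a description. JUN, a partner bZIP factor, had a larger response in S181E (0.95 log2, adjusted p 1.15e-05) and in Y396E (0.96, 7.4e-06), with lower control levels in both. ATF3 had a smaller one (-0.49, 0.00742, and -0.75, 0.0002). The ATF4 effector target GDF15, a secreted stress factor, had a larger response (0.50, 0.0131, and 0.56, 0.00491), while the serine synthesis genes PHGDH (-0.42, 0.035, and -0.39, 0.0396) and PSAT1 (-0.44, 0.0177, and -0.44, 0.0139) had a smaller one. In the ATF6 and XBP1 branch MANF (0.50, 0.00126, and 0.44, 0.00271) and SDF2L1 (0.38, 0.0355, and 0.55, 0.00315) had a larger response. EIF2AK2, the PKR gene, had a smaller response (-0.55, 0.00561, and -0.72, 0.00061), and so had EIF2S1, the alpha subunit of eIF2 (-0.28, 0.0191, and -0.27, 0.0193). Control means also differed for genes other than JUN. In WT, S181E and Y396E control cells EIF2AK2 had 36.7, 52.2 and 50.3 CPM, EIF2S1 134, 188 and 182 CPM, and GDF15 399, 261 and 285 CPM. A difference in response can thus lie in the control level, the arsenite level or both. The S181E and Y396E values share the WT libraries and are not independent of each other.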

How the results depend on the processing

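Of the values recomputed with other settings, not counting those with a library left out, 603 kept their direction and side of the threshold, 33 lost a call, 20 gained one and 3 changed sign. With a library left out the numbers were 1926, 38, 24 and 4. The sign changes were all near 0 in RQ control cells: ATF4 (0.01) was -0.044 with library totals only, -0.0047 with the lower filter, -0.0076 with no filter, -0.019 without WT control replicate 1 and -0.010 without RQ control replicate 3 (range with a library left out -0.019 to 0.041), and CHAC1 (0.06) was -0.20 without WT control replicate 2 and -0.12 without RQ control replicate 2 (range -0.20 to 0.27).

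The number of listed genes called moved as follows, with DDIT3 included and CHAC1 counted where a lower filter let it in. With a fold of 1.5, which by construction calls fewer genes, 5 in place of 8 were called for arsenite in WT, 0 in place of 3 for S181E control, 0 in place of 1 for Y396E control, 1 in place of 2 for RQ control, 1 in place of 2 for S181E and for Y396E arsenite, and 0 in place of 2 for the Y396E response. With library totals only the count was 2 for Y396E control, 1 for Y396E arsenite and 3 in place of 0 for the S181E response. The S181E response had 1 with the lower filter and 1 with no filter, in both cases CHAC1, 2 with only the groups compared and 2 with the replicate block. The Y396E response had 1 with DESeq2's size factors and 1 with only the groups compared. The cause was not tested. With a library left out the counts ran from 8 to 8 for arsenite in WT, 7 to 8 in S181E and Y396E, 6 to 7 in RQ, 2 to 3 for S181E control, 1 to 1 for Y396E control, 2 to 2 for RQ control, 2 to 2 for S181E arsenite, 2 to 3 for Y396E arsenite, 7 to 7 for RQ arsenite, 0 to 2 for the S181E response, 1 to 2 for the Y396E response and 4 to 5 for the RQ response.

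Over all genes, counts that moved by over 1.5 times with settings other than the fold were RQ control (71 with only the groups compared, against 130), RQ arsenite (250, against 138), Y396E arsenite (1122, against 1972), the Y396E response (948, against 1954) and the RQ response (31 with DESeq2 and 12 with library totals, against 20). With a fold of 1.5 the counts were 3831 in place of 6565 for arsenite in WT, 2775 in place of 5944 in S181E, 2882 in place of 5991 in Y396E and 4012 in place of 6631 in RQ, for control cells 478 in place of 2831 (S181E), 417 in place of 2606 (Y396E) and 17 in place of 130 (RQ), for arsenite cells 262 in place of 1250, 354 in place of 1972 and 29 in place of 138, and for the responses 108 in place of 1491, 224 in place of 1954 and 9 in place of 20. Leaving out a library gave 73 to 255 for RQ control (lowest without RQ control replicate 2, highest without Y396E arsenite replicate 3), 69 to 212 for RQ arsenite (lowest without RQ arsenite replicate 3), 8 to 38 for the RQ response (lowest without the same library), 748 for the S181E and 1151 for the Y396E response without WT control replicate 2. With library totals only, the share of called genes that were higher was 62.0% for arsenite in RQ (50.9% with TMM), 38.3% for RQ control (70%), 55.9% for S181E arsenite (38.7%), 77.7% for RQ arsenite (89.9%), 13.0% for the S181E response (42.6%) and 18.2% for the Y396E response (48.1%), and the medians of all genes moved to 0.16, -0.06, 0.04, -0.05, -0.14 and -0.12 log2. The replicate numbers are not stated to mark shared days: 22 of 84 pairs of equal number had a correlation of deviations over 0.1 (range -0.05 to 0.53), though 23 of 24 libraries correlated best with their own number. Depth limits CHAC1 in control cells and all of NUPR1.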
